A study of Sus scrofa with 3 samples.

Results

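The operated lung was compared with the non-operated lung of minipigs after lung ischemia-reperfusion, with 1 Affymetrix porcine expression array on each side. The operated lung is the left side, where the pulmonary artery was occluded for a time while ventilation went on and the bronchial branches were spared, and blood flow was then restored. The non-operated lung is the right side of the same surgical model, which kept its own pulmonary artery. An array of lung tissue from a sham minipig is printed beside both. Animals were specific pathogen-free, and no genotype was named. The sources used here give no strain, age, duration of occlusion, time of sampling or side of the sham lung. They also do not state whether both sides came from 1 animal or whether RNA was pooled. The measure is the log2 MAS5 signal in the operated lung minus that in the non-operated lung, read from probe sets that carry 1 gene symbol. A signal at or below the floor, which is each array's median over all probe sets other than reporters, was set to the floor, and a probe set entered when 1 or both of the 2 arrays read it above the floor. By this rule 6134 of 10069 named probe sets entered, which stand for 4944 of 6765 genes. Of these genes, 4698 lay above the floor on both arrays and 246 on 1 of them, so that their difference is a lower bound.

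The lung has a double blood supply. The pulmonary artery carries all mixed venous blood through the alveolar capillaries, and the bronchial arteries feed the airway wall. A ventilated lung whose pulmonary artery is closed keeps its oxygen from the airspace but loses flow, and the loss of shear stress is sensed by the endothelium, which then makes oxidants. When flow returns, the reperfused vessels can leak, bind neutrophils and activate complement and coagulation. The opposite lung takes the diverted flow during occlusion and is reached afterwards by the same circulating mediators, hormones and leukocytes. The comparison of sides asks which signals are particular to the lung whose artery was closed.

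The 3 arrays arrived on a common scale, with trimmed mean signals between 496.2 and 497.1, floors between 158.6 and 160.7, and between 4811 and 4841 genes above the floor. Lung identity was checked on 30 defining markers, of which 24 were counted, and 21 of these lay within 1.5-fold between sides. SFTPC, the surfactant protein made only by alveolar type 2 cells, had signals of 22178 in sham, 24072 in the non-operated lung and 23424 in the operated lung. Between sides, the alveolar type 1 markers AGER and HOPX differed by -0.14 and 0.06 on the log2 scale. The endothelial markers PECAM1 and CDH5 differed by -0.02 and -0.14. The sham array was not alike for these markers. AGER was below the floor in sham, and HOPX, PECAM1 and CDH5 had sham signals of 1394, 2878 and 974. Their signals in the non-operated lung were 7070, 6250 and 3740. KDR of endothelium, CD79B of B cells, KIT of mast cells, ADIPOQ of fat and MYH7 and CKM of striated muscle were not above the floor on either side. CD79B was above the floor in sham, at 2378. The 3 markers outside 1.5-fold between sides were SFTPB, S100A8 and MS4A2, described below with their groups. In whole tissue, fewer cells of a type and less RNA per cell cannot be told apart. With 1 array a side there is no spread between samples, and no difference was tested.

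The operated and non-operated lungs were close to each other over nearly all genes. The median difference was -0.02 on the log2 scale, its standard deviation over genes was 0.26, which is 1.20-fold, and 3555 of 4944 genes (71.9%) lay within 0.25. Of all counted genes, 2333 (47.2%) were above 0 and 2611 (52.8%) below. At least 2-fold differences were found in 12 genes (0.243%), 3 higher (0.0607%) and 9 lower (0.182%) in the operated lung, and none reached 4-fold. At 1.5-fold, 65 genes (1.31%) were higher and 104 (2.1%) lower, 169 in all (3.42%). Counted as single probe sets, 17 of 6134 (0.277%) passed 2-fold, 6 higher (0.0978%) and 11 lower (0.179%). The same floor and threshold against the sham array gave 889 of 5097 genes (17.4%) beyond 2-fold for the operated lung and 895 of 5113 (17.5%) for the non-operated lung. These comparisons with sham share the sham array, and each shares an I-R array with the comparison of sides, so their counts are set side by side only as sizes.

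**Figure D1:**
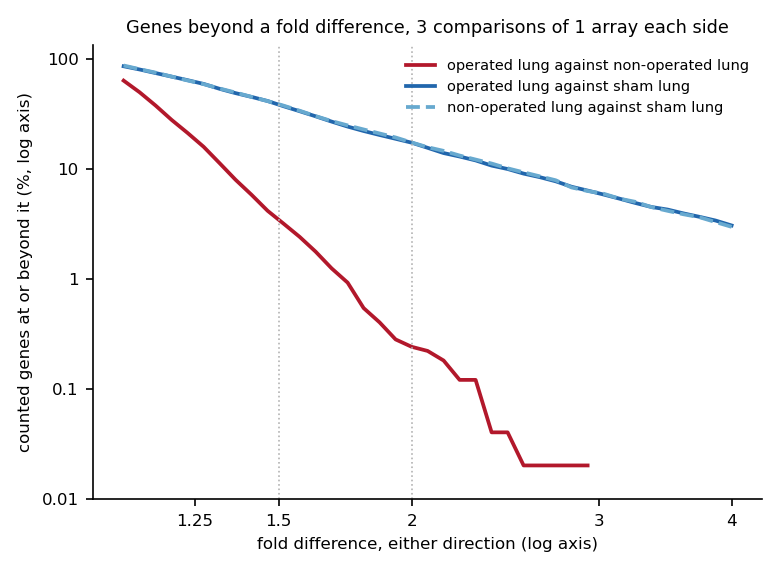
Share of counted genes (percent, log axis) whose signals differ by at least the fold on the horizontal axis (log axis), for the operated against the non-operated lung (red) and for each against sham (blue), 1 array each side. At 2-fold the red line stands at 0.243% and the blue lines at 17.4% and 17.5%.

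The spread of differences narrowed with signal. When genes were ordered by mean signal and cut into 5 equal bins, the dimmest bin held signals of 159 to 301. There the standard deviation was 0.32 and 65 genes lay beyond 1.5-fold. In the brightest bin, 2155 to 27203, it was 0.18, with 7 genes beyond 1.5-fold and 0 beyond 2-fold. Of the 12 genes beyond 2-fold, 5 were in the dimmest bin. The genes nearest the 2-fold line were CHI3L1 at -1.05 and MVB12B at -1.04 inside it, and MCF2L at -0.99 and LOC100522115 at 0.96 outside it. At the 1.5-fold line ITIH3 at 0.59 and COL5A1 at -0.59 lay inside and VPS26A at 0.58 and TIMM22 at -0.58 outside.

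**Figure D2:**
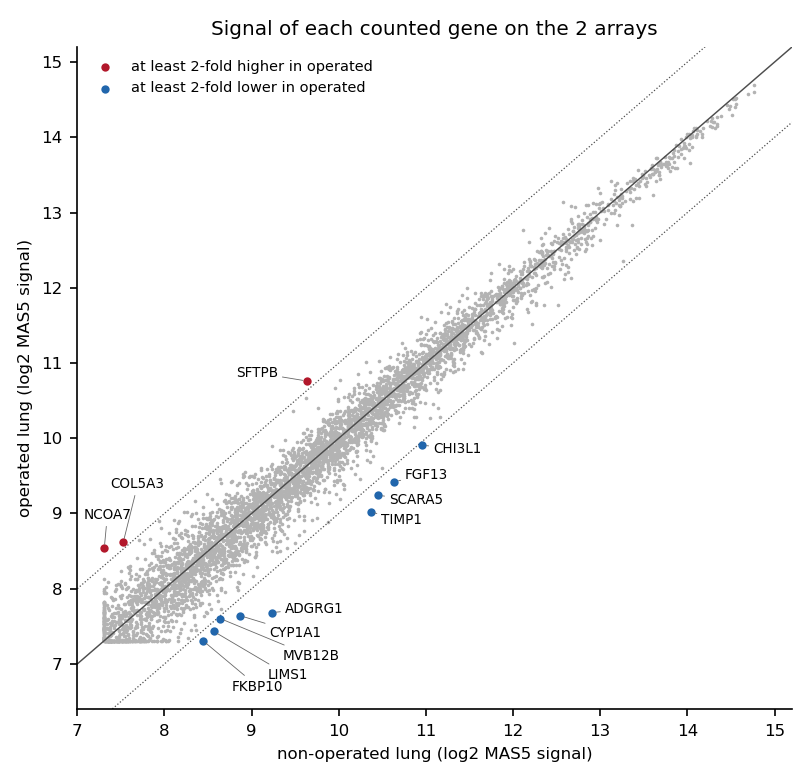
Log2 MAS5 signal of 4944 genes in the non-operated lung (horizontal) and the operated lung (vertical), with signals below an array's floor drawn at the floor, the solid line at equality and dotted lines at 2-fold. The 12 labelled genes are those beyond 2-fold, 3 higher (red) and 9 lower (blue) in the operated lung.

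A second reading of the same tissue came from genes with several probe sets. Within a gene, the differences read by its probe sets had a standard deviation of 0.23 over 2105 probe sets of 919 genes, close to the 0.26 over all genes. The share of variance that lay between genes (intraclass correlation) was 0.20 for operated minus non-operated lung and 0.71 for operated minus sham lung. Among probe sets with a mean of at least 4 times the floor it was 0.33 and 0.81. Of 17 genes beyond 1.5-fold that had several probe sets above the floor, 10 had all of them on 1 side and 5 had all beyond 1.5-fold. Those 5 were ANKRD1 and UGT2B31, higher in the operated lung, and MAP7D1, YIF1A and COL5A1, lower. TGFB2, a growth factor of the TGF-beta family, was read at 0.79 by 1 probe set and at -0.36 by another, and VCAN, a matrix proteoglycan, at -0.68, 0.12 and -0.09. None of the 12 genes beyond 2-fold had a second probe set above the floor. Each gene's difference is that of its brightest probe set, unless another is named.

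**Figure D3:**
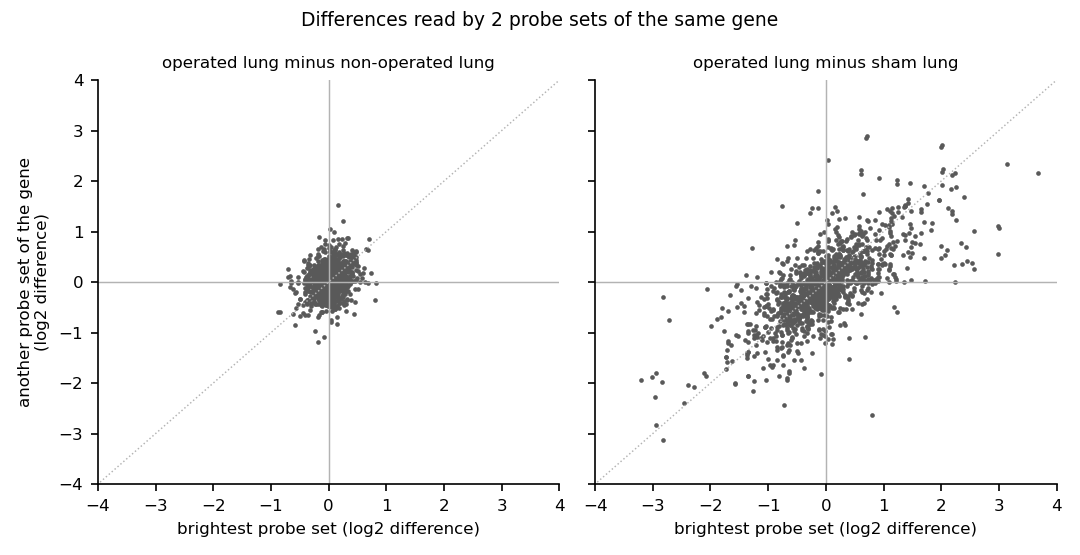
Log2 difference read by the brightest probe set of a gene (horizontal) and by another above-floor probe set of the same gene (vertical), for operated minus non-operated lung (left, 1186 pairs) and operated minus sham lung (right, 1285 pairs, 3 of them outside the axes). The left cloud is round and narrow (intraclass correlation 0.20), and the right one is drawn out along the dotted line of equality (0.71).

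Secreted proteins were among the 9 genes with a 2-fold lower signal on the operated side. TIMP1, the secreted inhibitor of matrix metalloproteinases, had signals of 1152 in sham, 1319 in the non-operated lung and 520.0 in the operated lung, which is 2.54-fold lower in the operated lung. The non-operated lung and sham were alike for TIMP1 and the operated lung was apart from both. SCARA5, a ferritin receptor marking fibroblasts of the vessel and airway sheath, had signals of 807 in sham, 1402 in the non-operated lung and 605 in the operated lung (2.32-fold lower). CHI3L1, a chitinase-like glycoprotein secreted by macrophages and matrix cells, had signals of 3566 in sham, 1991 in the non-operated lung and 961 in the operated lung (2.07-fold lower). CHI3L1 was highest in sham and lowest in the operated lung, with the non-operated lung between. FKBP10, an endoplasmic reticulum chaperone of collagen, was 298 in sham, 347 in the non-operated lung and below the floor in the operated lung, which makes it at least 2.19-fold lower. It was the only 2-fold lower gene whose operated value was below the floor.

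The other 2-fold lower genes had varied functions. CYP1A1, a monooxygenase induced through the aryl hydrocarbon receptor and present in lung endothelium, was below the floor in sham, 467 in the non-operated lung and 199.7 in the operated lung (2.34-fold lower). It was above the floor on both sides and not in sham. FGF13, an intracellular member of the fibroblast growth factor family that binds sodium channels, had signals of 505 in sham, 1594 in the non-operated lung and 687 in the operated lung (2.32-fold lower). The operated lung lay nearer to sham for FGF13, and the non-operated lung was the high array. The remaining 3 were outside the rule for naming and are given because they passed 2-fold. ADGRG1, an adhesion G protein-coupled receptor, was 196 in sham, 602 in the non-operated lung and 206 in the operated lung (2.93-fold lower). This was the largest difference among the counted genes. LIMS1, an adaptor of integrin adhesions, was 197 in sham, 378 in the non-operated lung and 173 in the operated lung (2.19-fold lower), and MVB12B, a subunit of the ESCRT-I sorting complex, was 240.0 in sham, 399 in the non-operated lung and 194 in the operated lung (2.05-fold lower). In all of these 3 the non-operated lung was the high array, and sham lay nearer to the operated lung.

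Below 2-fold, the next largest lower genes mixed vascular, immune and mitochondrial functions. TMEM100, an endothelial membrane protein induced by BMP signalling through ALK1, had signals of 1143 in sham, 9816 in the non-operated lung and 5219 in the operated lung (1.88-fold lower). Both sides were far above sham for TMEM100, and the non-operated side was the higher. NR4A3, an immediate early nuclear receptor, was 1.87-fold lower (1449 and 777 in the non-operated and operated lung). CCL24, an eosinophil-attracting chemokine, was 1.85-fold lower at 721 and 389, and C9, the pore-forming end of the complement cascade, 1.76-fold lower at 858 and 489. TSPO, the cholesterol-binding protein of the outer mitochondrial membrane, was 1244 in sham, 2297 in the non-operated lung and 1249 in the operated lung, so that sham and the operated lung were alike. TRAP1, the mitochondrial HSP90, was 1.79-fold lower at 777 and 435, with sham at 723 beside the non-operated lung. YIF1A, a factor of transport from the endoplasmic reticulum to the Golgi, was 1.83-fold lower, and its probe sets read -0.87 and -0.59. MFAP5, a microfibril glycoprotein, was 1.77-fold lower at 744 and 419.8, and RARRES2, which encodes the chemoattractant chemerin, 1.77-fold lower at 1038 and 588. AWN, a spermadhesin known from boar seminal plasma, was 1.78-fold lower at 641 and 361 and below the floor in sham.

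**Figure D4:**
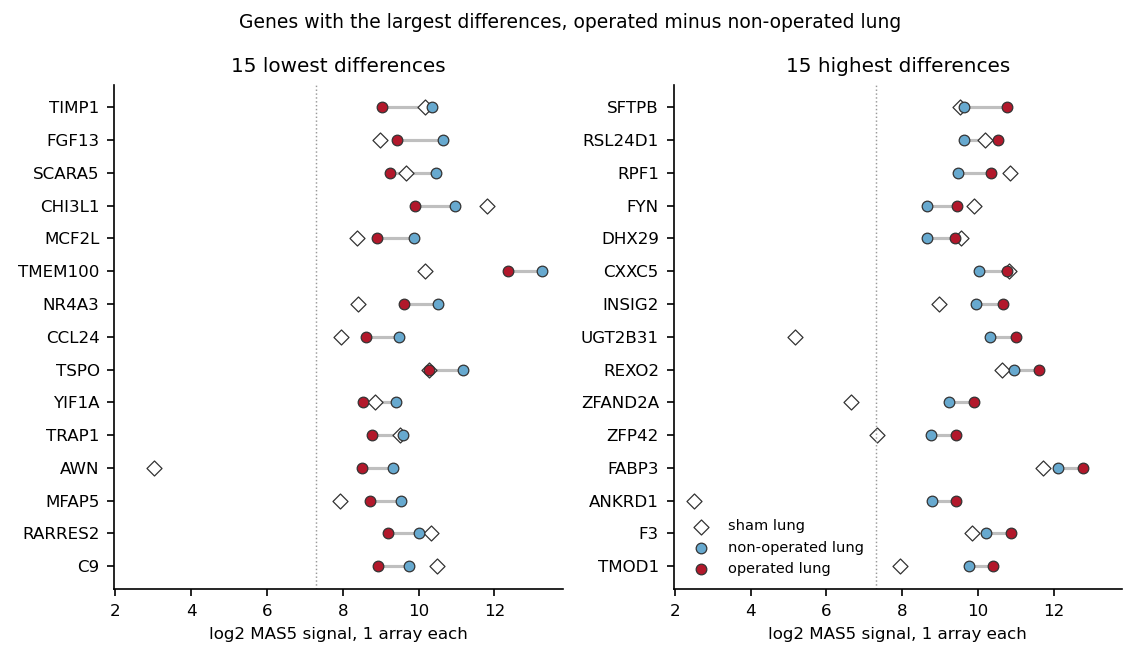
Log2 MAS5 signals on the sham (open diamonds), non-operated (light blue) and operated (red) arrays for the 15 lowest and 15 highest differences between sides by the naming rule, 1 array each; the dotted line is the floor. TIMP1 leads the lower genes at 2.54-fold and SFTPB the higher genes at 2.18-fold, and the grey bars between sides are short beside the distance to sham for genes such as TMEM100.

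Among the genes higher in the operated lung, SFTPB had the largest difference measured above the floor on both arrays. SFTPB encodes surfactant protein B, the small hydrophobic protein without which surfactant does not spread, and its signals were 739 in sham, 795 in the non-operated lung and 1734 in the operated lung (2.18-fold higher). Sham and the non-operated lung were alike and the operated lung was apart. NCOA7, a cofactor with an oxidation resistance domain, was 250.4 in sham, below the floor in the non-operated lung and 371 in the operated lung, which makes it at least 2.34-fold higher. COL5A3, a chain of type V collagen that was outside the naming rule, was 185 in sham, 184 in the non-operated lung and 392 in the operated lung (2.13-fold higher). Both low values of COL5A3 were near the floor.

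The next higher genes included factors of ribosome assembly and translation. RSL24D1 and RPF1, which act on the large ribosomal subunit in the nucleus, were 1.88-fold higher (788 and 1483 in the non-operated and operated lung) and 1.84-fold higher (710.3 and 1310.3). DHX29, a helicase of translation initiation, was 1.69-fold higher at 399.8 and 676, and FYN, a Src family kinase, 1.75-fold higher at 399.7 and 701. CXXC5, a zinc finger protein of Wnt and BMP signalling, was 1793 in sham, 1038 in the non-operated lung and 1750.0 in the operated lung. For RPF1, FYN, DHX29 and CXXC5 sham was above both sides, and the non-operated lung was the low array. INSIG2, which holds sterol sensing in the endoplasmic reticulum, was 1.63-fold higher at 992 and 1620.2, and FABP3, a cytosolic fatty acid carrier, 1.57-fold higher at 4430.5 and 6953. REXO2, a nuclease that clears short RNAs in mitochondria, was 1.59-fold higher, and ZFAND2A, a heat shock and arsenite inducible partner of the proteasome, 1.58-fold higher at 600.2 and 949.9. UGT2B31, a glucuronosyltransferase, was 1.61-fold higher at 1276 and 2059, and ANKRD1, a stress-induced target of the YAP pathway, 1.57-fold higher at 439.6 and 689. Both UGT2B31 and ANKRD1 were below the floor in sham, and their second probe sets read 0.84 and 0.65. ZFP42, a zinc finger gene known from pluripotent cells, was 1.58-fold higher, TMOD1, which caps actin filaments, 1.56-fold higher, and F3, tissue factor and the starter of coagulation, 1.56-fold higher at 1191 and 1856.

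Bounds, where 1 side was below the floor, added genes of small signal. On the lower side they were TBXAS1 (thromboxane synthase, at least 1.79-fold lower), NQO2 (a quinone reductase, at least 1.65-fold lower), MXD3 (a partner of MAX, at least 1.63-fold lower), POLD2 (a subunit of DNA polymerase delta, at least 1.63-fold lower), PRR15 (at least 1.58-fold lower), ID4 (an inhibitor of DNA binding, at least 1.57-fold lower) and RCC1L (at least 1.52-fold lower). On the higher side they were FAM234A (at least 1.76-fold higher), PRSS8 (prostasin, which activates the epithelial sodium channel, at least 1.61-fold higher), HNMT (which breaks down histamine, at least 1.58-fold higher), SLC25A11 (a mitochondrial carrier of oxoglutarate, at least 1.57-fold higher), ARMC6 (at least 1.55-fold higher), PRAM1 (at least 1.43-fold higher) and ACAD9 (an assembly factor of respiratory complex I, at least 1.43-fold higher). All of these bounds were under 2-fold.

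Gene lists gave the same picture of small differences. Of 55 lists, 49 had at least 5 counted members, and their medians ran from -0.22 to 0.12 beside the -0.02 of all genes. Of the 49 medians, 41 were below 0 and 37 were below that of all genes. Under 3 other scalings of the arrays 42 medians kept their sign, and the 7 that did not were at most 0.10 in size. Across the lists, 789 genes were counted, of which 13 were at least 1.5-fold higher and 21 lower. Over all genes these shares were 1.31% and 2.1%, which also stand beside the 1.5-fold counts of each list below. No member lay beyond 1.5-fold in 24 lists. In 4 further lists, written after the comparison had been seen, members beyond 1.5-fold were known when the list was drawn up.

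**Figure D5:**
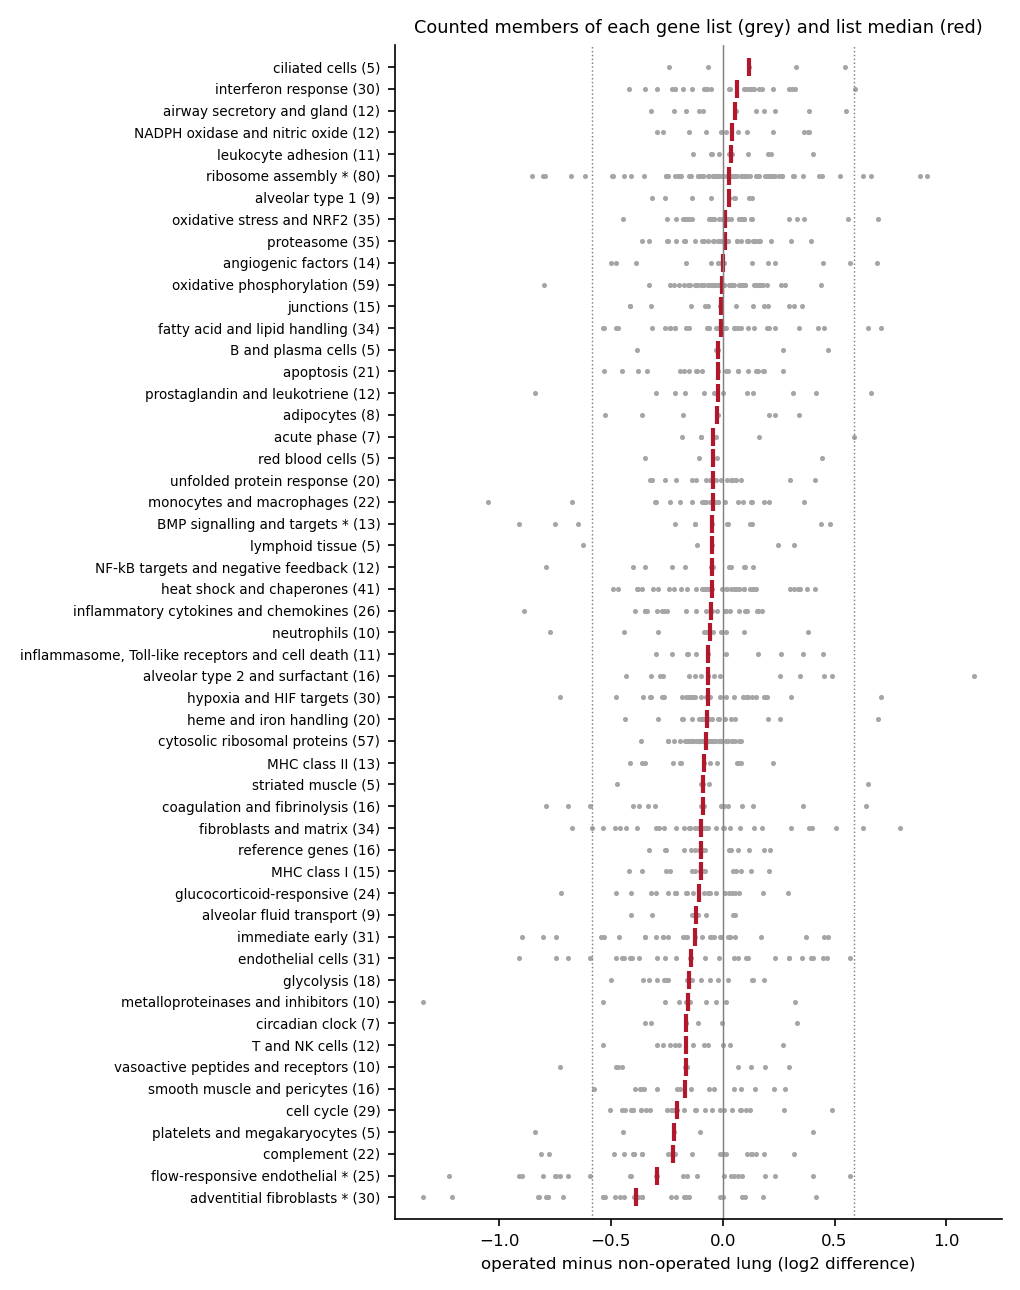
Log2 difference, operated minus non-operated lung, of every counted member (grey) and the median (red) of each gene list, with the number counted in brackets; dotted lines mark 1.5-fold, and an asterisk marks lists written after the comparison had been seen. The medians of the lists without an asterisk lie between -0.22 and 0.12, and adventitial fibroblast genes have the lowest median at -0.39.

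Most endothelial identity genes lay within 1.5-fold between sides, and those beyond it were all lower in the operated lung. Some genes known to respond to flow were lower on the operated side, and others, such as TEK and PLAT, were not. The arrays read whole tissue, so these signals cannot be placed in the endothelium, and a part of flow was not tested. The endothelial list had a median of -0.14 over 31 counted genes. At least 1.5-fold lower were 4, beside 2.1% of all genes, and 0 were higher, beside 1.31%. The 4 were TMEM100, KLF4, PROCR and THBD. KLF4, a transcription factor that laminar shear induces, had signals of 1546 in sham, 5858 in the non-operated lung and 3490.3 in the operated lung (1.68-fold lower). THBD, the thrombomodulin that KLF factors induce, had signals of 882 in sham, 5247 in the non-operated lung and 3480.0 in the operated lung (1.51-fold lower), and PROCR, its partner receptor for protein C, 691 in sham, 776 in the non-operated lung and 481 in the operated lung (1.61-fold lower). For KLF4 and THBD both sides were above sham, and the operated lung lay lower of the pair. RAMP2, AQP1, GJA4 and VWF, which encode a receptor partner, a water channel, a gap junction protein and von Willebrand factor, were at -0.48, -0.41, -0.42 and -0.37 on the log2 scale. ERG, DLL4 and ANGPT2, a transcription factor, a Notch ligand and a vessel-destabilising angiopoietin, lay the other way at 0.47, 0.45 and 0.57.

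The flow-responsive list, written after the comparison had been seen, had a median of -0.29 over 25 counted genes, which ran from -0.35 to -0.23 under other settings. The list was not split into genes that flow raises and genes that it lowers, so its median and counts have no single direction. Of the 25, 9 were at least 1.5-fold lower, beside 2.1% of all genes, and 12 are also in the endothelial list. All 9 were known when the list was written. Those 9 included CYP1A1, NR4A3 and TMEM100 as above, together with NR4A2, ID1, KLF4 and ADM. ID1, a direct target of BMP signalling, was 1169 in sham, 4134 in the non-operated lung and 2459 in the operated lung (1.68-fold lower), and ADM, the vasodilator adrenomedullin, 396 in sham, 1068 in the non-operated lung and 644 in the operated lung (1.66-fold lower). NR4A2 was 1.75-fold lower at 625 and 357 and below the floor in sham. The other 16 members lay on either side of 0, from -0.42 to 0.57, with 7 of them below 0, beside 52.8% of all genes. They included NOS3, the endothelial nitric oxide synthase, at -0.29, EDN1, the vasoconstrictor endothelin, at 0.19, and HMOX1 and NQO1 at -0.18 and 0.01. Of 13 BMP pathway genes, also listed afterwards, TMEM100, ID1 and ID4 were at least 1.5-fold lower, beside 2.1% of all genes. The receptors ACVR1 and BMPR1B stood at 0.48 and 0.44, and the list median was -0.05.

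Among 10 genes of vasoactive peptides and their receptors the median was -0.16. Beside ADM, the angiotensin genes AGT and ACE were at -0.47 and -0.45, and the adrenomedullin receptor parts RAMP2 and CALCRL at -0.48 and 0.30. AGTR1, the angiotensin receptor, was alike on both sides at 4442 and 4847. This median was -0.47 with the floor at the 75th percentile and 0.03 with no floor. Of 14 angiogenic factors, ANGPT1, which stabilises vessels through TEK, was 1.61-fold higher and VEGFA was at 0.13.

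Coagulation genes lay both ways. Of 16 counted, 3 were at least 1.5-fold lower (PLAU, PROCR and THBD) and 1 higher (F3), beside 2.1% and 1.31% of all genes. PLAU, the urokinase that activates plasminogen, had signals of 875 in sham, 1213 in the non-operated lung and 702 in the operated lung (1.73-fold lower). F3 had signals of 924 in sham, 1191 in the non-operated lung and 1856 in the operated lung (1.56-fold higher). The operated array was the highest of the 3 for F3 and the lowest for PLAU and PROCR. VWF, PLAT and THBS1 were at -0.37, 0.09 and 0.01. The platelet list had 5 counted genes and a median of -0.22, with the platelet chemokine PPBP at -0.22.

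Immediate early genes had a median of -0.13 over 31 counted genes, 23 of them below 0, beside 52.8% of all genes. NR4A3, NR4A2 and KLF4 were at least 1.5-fold lower, 3 of 31 beside 2.1% of all genes. FOS had signals of 3346 in sham, 6517 in the non-operated lung and 4466 in the operated lung (1.46-fold lower), so the operated lung lay between sham and the non-operated lung. EGR1, DUSP1, JUN, ATF3 and CYR61 were at -0.16, -0.06, -0.01, -0.01 and -0.01. Higher members were PPP1R15A, which restores translation after stress, at 0.47 and RHOB at 0.37. Of 24 glucocorticoid-responsive genes 1, CRISPLD2, was beyond 1.5-fold, with signals of 672 in sham, 1869 in the non-operated lung and 1131 in the operated lung (1.65-fold lower). FKBP5, the classic glucocorticoid target, was at -0.16, and the list median was -0.11. The 7 clock genes had a median of -0.16, with PER1 at -0.32 and DBP at 0.33.

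In the alveolar and airway epithelial lists, SFTPB was the only member beyond 1.5-fold. PRSS8, given above among the bounds, is in none of these lists. Of 16 alveolar type 2 and surfactant genes, SFTPB was the 1 beyond 1.5-fold and the median was -0.07. SFTPA1 and SFTPD, the surfactant collectins, were at 0.25 and -0.10, SFTPC at -0.04, and SLC34A2, the phosphate transporter of these cells, at 0.34. The keratins KRT18 and KRT8 were at -0.43 and -0.28. Of 9 alveolar type 1 genes none was beyond 1.5-fold, the median was 0.03, and the water channel AQP5 was lowest at -0.32. Airway secretory and ciliated lists had medians of 0.06 and 0.12, with the trefoil peptide TFF3 at 0.55 and the oxidase DUOX2 at 0.39. The 9 genes of alveolar fluid transport had a median of -0.12, with the sodium pump subunit ATP1B1 at -0.13 and the sodium channel subunit SCNN1B at -0.12.

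Genes of adventitial fibroblasts, the cells of the vessel and airway sheath, were put in a list written after the comparison had been seen. Of its 30 counted genes 25 were below 0, beside 52.8% of all genes, and the median was -0.39. At least 1.5-fold lower were 8, beside 2.1% of all genes, and 0 were higher. It ran from -0.40 to -0.36 under other settings. The 8 were TIMP1, SCARA5, MFAP5, RARRES2, PLAU, TNXB, PDGFRL and EFEMP2, which were known when the list was written. The other 22 were also chosen after the comparison had been seen, and several, such as LUM, DCN and C3, stood in earlier lists. They are therefore no separate check. Of these 22, 17 were below 0, in a range of -0.53 to 0.42. Small proteoglycans and glycoproteins that wrap collagen were among them, with LUM at -0.48 (3604 and 2582 in the non-operated and operated lung), DCN at -0.46 (6121 and 4458), DPT at -0.38 (2863 and 2202), CCDC80 at -0.53 (919.7 and 639) and FBLN1 at -0.53 (642 and 443). TNXB, a tenascin of loose connective tissue, was 264 in sham, 393 in the non-operated lung and 228 in the operated lung (1.72-fold lower), and EFEMP2, which helps elastic fibres form, 344 in sham, 479.7 in the non-operated lung and 292 in the operated lung (1.64-fold lower). Members at or above 0 included CLEC3B, IGFBP6, ASPN and PTGDS at 0.08, 0.10, 0.18 and 0.42. The sources used here do not say how much large vessel and airway the sampled pieces held, and the part of this in the values was not tested.

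The wider fibroblast and matrix list had a median of -0.10 over 34 counted genes, with 2 at least 1.5-fold higher and 2 lower. The lower ones were VCAN and COL5A1, and the higher ones TGFB2 and TNC, a tenascin of injured tissue at 0.63. VCAN and TGFB2 each had another probe set of opposite sign, as given above. COL5A3, 2.13-fold higher, is not in this list. Fibrillar collagens lay apart, COL3A1 at -0.21 and COL1A2 at 0.51, and fibronectin FN1 at 0.00. Smooth muscle and pericyte genes had a median of -0.17 over 16 counted, none beyond 1.5-fold, with MCAM lowest at -0.58, ACTA2 at -0.29 and CNN1 at 0.28. Among 10 metalloproteinase and inhibitor genes TIMP1 alone was beyond 1.5-fold. Its relatives TIMP2 and TIMP3 were at -0.17 and -0.20, and the protease ADAMTS1 at -0.53.

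Complement genes had a median of -0.22 over 22 counted genes, 15 of them below 0, beside 52.8% of all genes. C9 and C4A were at least 1.5-fold lower. C4A, a component of the classical and lectin pathways, had signals of 5809.7 in sham, 2108 in the non-operated lung and 1232 in the operated lung (1.71-fold lower). CFB and CFD of the alternative pathway were at -0.48 and -0.36, C3 at -0.36, C7 at -0.44, C1R at -0.40 and the inhibitor SERPING1 at -0.40. The macrophage-made C1QA and C1QC stood at 0.13 and -0.14, and FCN2, a ficolin that starts the lectin pathway, was below the floor in sham, 8202 in the non-operated lung and 8983 in the operated lung. FCN2 was far above sham on both sides alike. Of the complement members, 5 also belong to the adventitial fibroblast list, and the complement median was -0.01 with no floor.

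Among leukocyte genes, macrophage markers were the most numerous. Of 22 monocyte and macrophage genes 2 were beyond 1.5-fold, CHI3L1 and VCAN, both lower, and the median was -0.05. Other probe sets of VCAN read 0.12 and -0.09. CD163, the haemoglobin scavenger receptor, had signals of 2069.5 in sham, 8257 in the non-operated lung and 8316 in the operated lung, and MRC1, the mannose receptor, differed by 0.09. Neutrophil genes had a median of -0.06 over 10 counted, which was -0.30 with no floor or with the floor at the 25th percentile. S100A8, a calgranulin of neutrophils and monocytes, was 178 in sham, 826 in the non-operated lung and 484 in the operated lung (1.71-fold lower), whereas its partner S100A9 was 598 in sham, 6517 in the non-operated lung and 5335 in the operated lung (-0.29 on the log2 scale) and S100A12 was at 0.01. The S100A genes were higher on both sides than in sham, and among them S100A8 alone passed 1.5-fold between sides. MS4A2, the mast cell and basophil subunit of the IgE receptor, was 173 in sham, 602 in the non-operated lung and 361 in the operated lung (1.67-fold lower), while KIT was not above the floor.

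Of 26 inflammatory cytokines and chemokines, CCL24 was the 1 beyond 1.5-fold, and the median was -0.05. IL6, IL1B, TNF and CXCL8 were at -0.25, -0.12, -0.05 and 0.10, CCL2 at -0.26 and IL18 at 0.16. Leukocyte adhesion genes had a median of 0.04 over 11 counted, with the selectin SELP at 0.40 and ICAM1 and VCAM1 at -0.05 and 0.04. The Toll-like receptor genes TLR4 and its partner LY96 were at 0.45 and 0.36, and TLR2 at -0.30. T and NK cell genes had a median of -0.16 over 12 counted, 10 of them below 0, beside 52.8% of all genes. The cytotoxic granule gene GNLY was lowest at -0.54, and CD3E was at -0.08. CXCL13, the chemokine that draws B cells to follicles, was 6725 in sham, 346 in the non-operated lung and 224 in the operated lung (1.54-fold lower), low on both sides beside sham.

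Blood content was read from red cell genes. HBB had signals of 758 in sham, 902 in the non-operated lung and 1228 in the operated lung, 0.44 on the log2 scale, ALAS2 differed by -0.11 and HBM by -0.04, and the 5 counted genes had a median of -0.04. In the heme and iron list, BLVRA, which turns biliverdin to bilirubin, was below the floor in sham, 161 in the non-operated lung and 261 in the operated lung (1.62-fold higher). Its non-operated signal was near that array's floor of 158.6. HMOX1, the heme oxygenase one step before BLVRA, was 401 in sham, 5681 in the non-operated lung and 5015 in the operated lung, alike on both sides and far above sham. The list median was -0.07 over 20 counted genes.

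Lists for oxygen lack, oxidants and protein damage had few members beyond 1.5-fold, while TRAP1, NCOA7, NQO2 and FKBP10, described above, are in none of them. Of 30 hypoxia-inducible factor targets, ADM was at least 1.5-fold lower and INSIG2 higher, the median was -0.07, and LDHA, PGK1 and VEGFA were at -0.06, 0.19 and 0.13. Of 35 NRF2 and oxidative stress genes BLVRA was the 1 beyond 1.5-fold, and the median was 0.01. GCLC, TXNRD1 and the metallothionein MT-2B were at 0.33, 0.36 and 0.56, and SESN1 at -0.45. None of 41 heat shock and chaperone genes reached 1.5-fold, and none of 20 genes of the unfolded protein response did. The interferon list had a median of 0.07 over 30 counted genes, with RSAD2, the antiviral viperin, at 669 and 1007 in the non-operated and operated lung (0.59 on the log2 scale) and ISG15 and MX1 at -0.08 and -0.21. ITIH3, an acute phase protein that binds hyaluronan, was at 0.59 on the log2 scale, with signals of 482 and 724, and below the floor in sham.

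Energy metabolism genes differed little between sides. The 59 counted genes of oxidative phosphorylation had a median of 0.00, with 28 above and 31 below 0, and ATP5I alone was beyond 1.5-fold (1.74-fold lower at 370.4 and 213). Glycolysis genes had a median of -0.15 over 18 counted, 14 of them below 0 (52.8% of all genes) and none beyond 1.5-fold, with PFKP lowest at -0.50. PDK4, the kinase that shuts pyruvate off from the mitochondrion, was below the floor in sham, 6908 in the non-operated lung and 5835 in the operated lung, high on both sides beside sham. Of 34 lipid genes INSIG2 and FABP3 were at least 1.5-fold higher and none lower, while CPT1A, which admits fatty acids to mitochondria, was at -0.53 and SCD, a desaturase, at 0.45.

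Of the growth and protein synthesis lists, cell cycle genes had a median of -0.20 over 29 counted. None was beyond 1.5-fold, and 21 were below 0, beside 52.8% of all genes. That median was -0.10 with no floor and a pseudocount of 100, and -0.0041 with the floor at the 75th percentile. TOP2A, which untangles DNA, and the mitotic factors BIRC5 and DLGAP5 were at -0.44, -0.45 and -0.50 and SMC4 at 0.49. Against sham the same list had medians of -2.18 for the operated and -2.00 for the non-operated lung. Of 57 cytosolic ribosomal protein genes 48 were below 0, beside 52.8% of all genes, and none was beyond 1.5-fold. Their median was -0.08, which became 0.00 after quantile normalization. The 16 reference genes moved likewise, from -0.10 to 0.00. In the ribosome assembly list, written after the comparison had been seen, 80 genes had a median of 0.03. Of these RSL24D1, RPF1, NMD3 and RCL1 were at least 1.5-fold higher, beside 1.31% of all genes. PES1, LYAR, MRTO4, WDR18 and TBL3 were lower, from -0.85 to -0.62, beside 2.1% of all genes.

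The place of the sham array differed among the genes that separated the sides. Of 65 genes at least 1.5-fold higher in the operated lung, sham lay below both sides in 33, between them in 16 and above both in 16. Of 104 lower genes, sham lay below both in 50, between in 24 and above both in 30. Over all 4944 genes these places were taken by 39.5%, 11.4% and 49.1%. The operated lung was the side nearer to sham in 28 of 65 higher and 60 of 104 lower genes, beside 51.1% of all genes. Genes far from sham that were within 1.5-fold between sides included EIF1AY, a Y chromosome gene, at 1646 and 1893 in the non-operated and operated lung. CYP7A1, the rate-limiting enzyme of bile acid synthesis, was another, at 1969.9 and 2730.3. Both were below the floor in sham. The sample titles do not give the sex of the animals, and a part of sex in the differences from sham was not tested. Because the same 2 arrays enter the choice of genes and the distances to sham, these counts are a description.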

How the data were processed

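Lung RNA was labelled with a 3' in vitro transcription kit, per the labels' protocols. The authors deposited 1 log2 signal per probe set and array, made with MAS5 per the submitters' processing notes, with version and scaling target not given in the sources used here. Each array held 23999 probe sets, of which 64 reporters were left out. Symbols came from the platform annotation: 10069 probe sets had 1 gene, 198 several and 13668 none. Of these 9961 identifiers matched RefSeq (Sscrofa11.1). The probe set with the highest mean log2 signal over 3 arrays stood for a gene. Genes were named as the 15 highest and 15 lowest differences with a signal of 4 times the floor or more on the brighter side and no above-floor probe set of opposite sign, the 8 largest bounds each way, up to 5 members beyond 1.5-fold per list, and the defining markers. Other genes named were chosen after their values were seen. Members and lists were chosen with earlier results of these data known. There is 1 array per group, so no test was made, and precision is limited by the number of arrays. Alternatives changed the floor, a pseudocount of 100, scaling, the probe set and the fold. Computation used Python 3.11.15 with pandas 2.3.3, numpy 2.4.6 and statsmodels 0.14.6, and was tested on simulated data.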

Additional observations from a re-analysis of the deposited data

How the results depend on the processing

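The count of genes beyond 2-fold (3 higher, 9 lower, 12 in all) was the same under centring, quantile normalization and loess, and depended on how low signals were treated. A floor at the 25th percentile gave 47, 63 and 110, no floor 231, 319 and 550, a floor at the 75th percentile 1, 4 and 5, and a pseudocount of 100 gave 5 lower and 8 in all. The mean of all probe sets gave 6 higher and 18 in all, the dimmest probe set above the floor 6 higher, and probe sets counted singly 6 higher. At 1.5-fold the counts were 65, 104 and 169, and at 4-fold 0, 0 and 0. Settings added after seeing the data gave 1, 4 and 5 among 2725 genes with a mean at least 4 times the floor, and 0, 0 and 0 among 919 genes whose probe sets all had to pass. None of 72 named genes beyond 1.5-fold changed direction under any alternative, while SFTPC, PECAM1 and CD163, all within 0.04 of 0, did. The naming rule had passed over leading and list genes with an above-floor probe set of opposite sign, such as TGFB2 at 0.79 and -0.36. The absence of reversals is therefore no check across probe sets. A changed floor or a pseudocount leaves the order of 2 signals of 1 probe set almost unchanged. Those settings could hardly reverse a gene beyond 1.5-fold. Sizes varied more, and ADGRG1, 1 of the 72, ranged from -1.55 to -0.01. The -0.01 came with the floor at the 75th percentile, which lay just below the non-operated signal of ADGRG1, and is a lower bound. A higher floor shortens other differences in the same way. Of 95 named genes, 18 of 59 still counted moved by more than 0.23 with the floor at the 75th percentile, 11 with the pseudocount, and 0 under the 3 scalings. No paired analysis was possible because each group holds 1 array.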

Other observations

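The 13866 probe sets with no gene name or with several held larger differences than any named gene. Of 6348 above the floor on at least 1 side, 10 were at least 2-fold higher and 17 lower in the operated lung (0.425%), beside 18.3% and 18.4% beyond 2-fold for the operated and non-operated lung against sham. The lowest of these differences came from a probe set with signals of 2025 in sham, 6089 in the non-operated lung and 692.9 in the operated lung, which is 8.79-fold lower. The next lowest had signals of 1719, 4401 and 839.5 in the same order, which is 5.24-fold lower. At the other end, the highest difference came from a probe set that read 914.8, 247.0 and 976.6 (3.95-fold higher), and the next from one that read 651.9, 239.8 and 599.3. In both of the lower ones the non-operated lung was the high array, and in both of the higher ones it was the low array, with sham and the operated lung alike. These probe sets were chosen after their values were seen.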
